A study of Homo sapiens with 24 samples.

Results

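The low polysome pool of MRC5, an established fibroblast line from human lung, was compared between untreated cells (control) and cells under oxidative stress (OS), given 0.2 mM hydrogen peroxide for 2 hours. The pool comprised fractions 10 to 14 of 23 sucrose gradient fractions, in which RNA carried 2 to 4 ribosomes. The 6 arrays labelled as low pool, 3 control and 3 OS, were taken out of 24 arrays by their labels alone. The other arrays held total RNA, the untranslated pool (fractions 1 to 9) and the high pool (fractions 15 to 23, with 5 or more ribosomes), also with 3 control and 3 OS arrays each. All groups came from this line, cells for the gradients were given cycloheximide before harvest, and each replicate was an independent RNA preparation. Each array carried 17535 catalog probes, which form the mRNA category, and 44002 custom probes for long noncoding RNAs (lncRNAs), designed as 2 for each transcript. Some catalog probes are for noncoding transcripts, such as MALAT1 and LINC01004, and count as mRNA probes below.

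Ribosomes that translate the same mRNA one behind the other form a polysome, and a sucrose gradient separates transcripts by the number of ribosomes bound. Stressed cells commonly slow the initiation of translation through phosphorylation of eIF2α, and mRNAs then carry fewer ribosomes, while a few mRNAs with upstream open reading frames, such as ATF4, are translated better. Polysomes on mRNAs for secreted and membrane proteins lie on the endoplasmic reticulum. A transcript can therefore gain or lose signal in a pool because its amount in the cell changed or because its ribosome load changed. The same amount of RNA was labelled for every array, so that a value below is a level relative to the other transcripts of the same pool, and fewer cells cannot be told apart from less RNA per cell.

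OS replicate 3 stood apart before any comparison. On this array 95.4% of the mRNA probes and 93.3% of the lncRNA probes were well above background by the scanner's own flag, against 59.5 to 65.7% and 25.6 to 33.5% on the other 5 arrays. Its median processed signal was 994 for mRNA probes, against 129 to 208 on the other arrays, and 600 for lncRNA probes, against 20.8 to 35.7. Differences are therefore given without this array, with 3 control and 2 OS arrays in the low pool, and the values with all arrays are set beside them. In the captions and sentences that follow, its signals are its probes placed by rank on the scale of the other arrays, and they entered no estimate unless this is stated. Fibroblast markers (COL1A1, COL3A1, THY1 and LUM) were well above background on the 5 arrays used, KRT5 of epithelium and CLDN5, VWF and KDR of endothelium on none of them. The other 6 markers of epithelium, endothelium and blood on tested probes were detected. KRT18, CLDN4, CLDN3, CDH5 and PTPRC were well above background on all 5 arrays used, and EPCAM on 2 control and 2 OS arrays. In control KRT18 (10.87) and CLDN4 (9.26) were brighter than COL3A1 (8.025). KRT18 rose by 0.69 on the log2 scale (limma adjusted p = 0.022), and CLDN4, with group means of 9.26 and 10.39, and the rest were not called. Their part in the results was not tested.

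**Figure D1:**
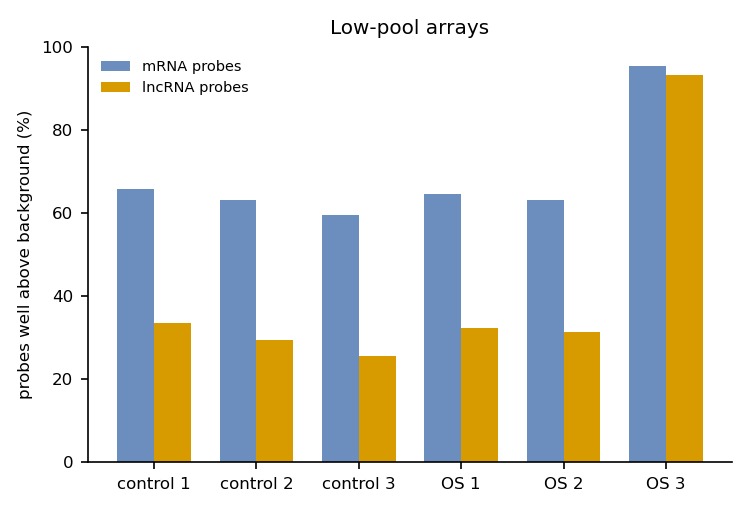
Percentage of probes well above background (vertical axis) on each of the 6 low pool arrays, with bars for mRNA and lncRNA probes. OS replicate 3 reached 95.4% and 93.3%, and the other 5 arrays stayed at or below 65.7% and 33.5%.

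Upon OS, transcripts of the low pool moved in both directions. A probe was called higher or lower at a limma adjusted p under 0.05, over mRNA and lncRNA probes together. Of 10833 mRNA probes tested 635 were higher (5.86% of those tested) and 508 were lower (4.69%), and the median difference over all of them was -0.03 on the log2 scale. Of 12602 lncRNA probes 740 were higher (5.87%) and 346 were lower (2.75%), with a median of -0.05. A probe entered where it was well above background on all arrays of either group, which asked for 2 arrays of OS and 3 of control, so that dim probes could enter through the group in which they were high. Where both groups had to pass, 436 lncRNA probes were higher and 346 lower, and 537 and 500 mRNA probes. With all 6 arrays 478 mRNA probes were higher (4.42%) and 589 lower (5.45%), and 353 lncRNA probes were higher (2.82%) and 373 lower (2.98%), with medians of -0.18 and -0.58. The 2 sets of calls shared 403 mRNA probes called higher, which were 63.5% of the calls without OS replicate 3 and 84.3% of those with it, and 437 called lower (86.0% and 74.2%). For lncRNA probes they shared 308 called higher (41.6% and 87.3%) and 270 called lower (78.0% and 72.4%).

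The balance of directions depended on how arrays were scaled. Under 75th percentile scaling the median mRNA difference was -0.26 and 303 mRNA probes were higher and 728 lower, and with no normalization these were -0.33, 265 and 1602. For lncRNA probes the counts were 720 higher and 234 lower under 75th percentile scaling, and 690 and 505 with no normalization. Calls also fell when a further OS array was left out, which leaves that group with 1 array that is assumed to vary like the others. Without OS replicate 1 there were 355 mRNA probes higher and 238 lower and 185 lncRNA probes lower, and without OS replicate 2 there were 275 mRNA and 160 lncRNA probes lower.

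Among the probes named for the size of their change, which had to be well above background on all arrays used, the rises were led by IQCN, ATF3 and C11orf96. In total RNA these probes differed by 5.25, 4.84 and 3.96. None of them was called between total RNA and the low pool (limma adjusted p = 0.766, 0.982 and 0.969). Activating transcription factor 3 (ATF3), a stress-induced regulator of the integrated stress response, had log2 signals of 12.09, 11.62 and 11.65 on the control arrays and 16.80 and 16.23 on the OS arrays, with 16.13 on OS replicate 3. Every OS value lay more than 4 log2 units above every control value. The difference was 4.73 (SE 0.25, limma adjusted p = 8.56e-10), a 26.6-fold rise. A pair of further ATF3 probes rose by 4.39 and 4.45, and another differed by 0.57 (limma adjusted p = 0.361). The start of the probe with the highest signal is shown beside those of 4 other genes to which the results return. Each line gives the first 30 of 60 bases from the array design, and the positions of the whole probes in GRCh37 are chr1:212793856-212793915 on the plus strand for ATF3, chr6:75794289-75794348 on the minus strand for COL12A1, chr6:26234699-26234758 on the minus strand for H1-3, chr1:86048953-86049012 on the plus strand for CCN1 and chr19:20045657-20045716 on the plus strand for ZNF93.
ATF3: gatgtcaatagcattgtttttgtcatgtag
COL12A1: agtgcatcaacgggatacagttccatattg
H1-3: cagccaagaagcccaagaaggtggctggcg
CCN1: ggagcacatgttactgcttcattttggagc
ZNF93: gtggtcctcacaccttactatacactgaga

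IQCN, named KIAA1683 on the array, had control values of 6.85, 6.92 and 6.55 and OS values of 11.57 and 11.77. Its OS replicate 3, at 11.56, lay with the other OS arrays, and the rise of 4.90 (SE 0.21, limma adjusted p = 9.63e-11) was 29.8-fold. C11orf96 followed at 4.12 (SE 0.25), from 9.40 to 9.97 on the control arrays to 13.76 on both OS arrays. Between 2.51 and 3.78 lay ENST00000425161, FAM90A1, LINC01004, LOC730202, DKFZp451A211, RGS16, which shortens G protein signals, and CFAP45, a protein of motile cilia. For each of these named probes the OS values lay above all control values, since the rule that chose them asked for this. For LOC730202 OS replicate 3 was at 3.84, below the control values of 5.19 to 5.41, and with all arrays its difference was 1.40 (limma adjusted p = 0.187). RGS16 lost its call without OS replicate 1.

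**Figure D2:**
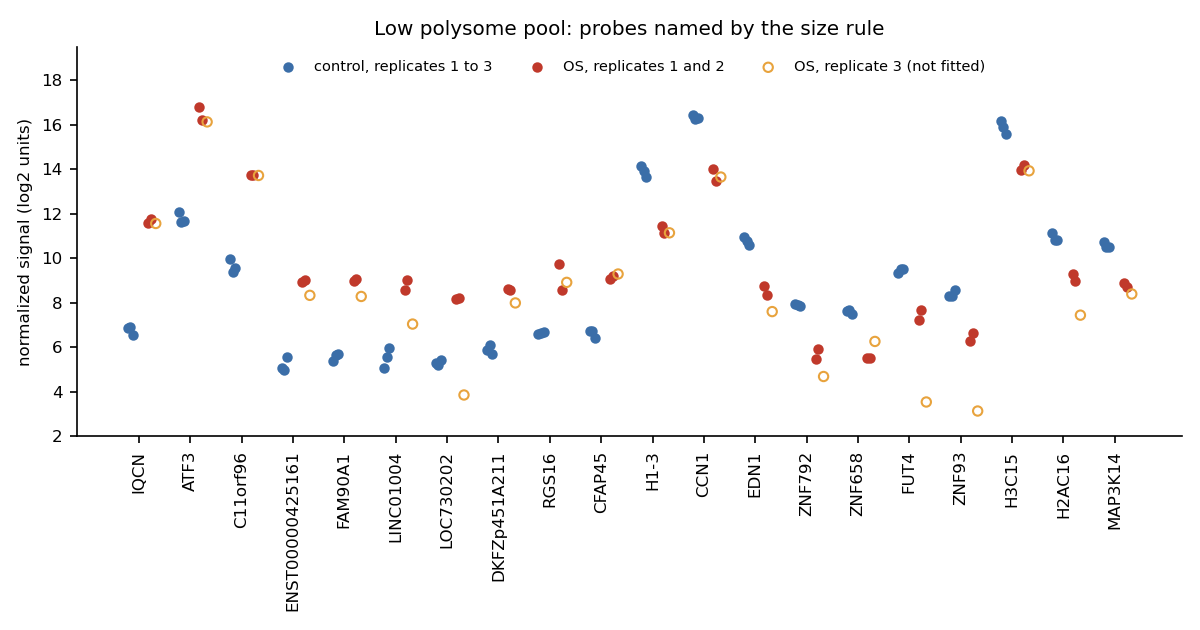
Log2 signal (vertical axis) of the 20 named mRNA-category probes on each low pool array, with control replicates in blue, OS replicates 1 and 2 in red and OS replicate 3 as open orange circles, which were placed by rank and not fitted. ATF3 moved from 11.62 to 12.09 on control arrays to 16.23 and 16.80, and CCN1 from 16.28 to 16.45 to 13.49 and 14.01.

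Immediate early and growth factor response genes are transcribed within minutes of a stimulus. Among 22 tested 11 were higher (50%) and 3 lower (13.6%), with a median difference of 0.55. Over all 9477 genes tested, with 1 probe per gene, 6.19% were higher and 4.86% lower. ARC, whose product acts at the cytoskeleton and was well above background on 2 of 3 control arrays, had control values of 5.22, 5.48 and 4.72 and OS values of 10.51 and 9.33, with 10.52 on OS replicate 3. The groups did not overlap, and the difference was 4.78 (SE 0.59, limma adjusted p = 3.05e-05). EGR3, a zinc finger transcription factor, was not well above background on any control array and rose at least 2.68-fold (limma adjusted p = 4.32e-05), a bound from the dimmest signal detected on each control array. The nuclear receptors NR4A3 and NR4A2 rose by 2.35 and 1.27, the pluripotency factor KLF4 by 2.26 and the antiproliferative BTG2 by 1.14. IER3, DUSP5, which dephosphorylates nuclear ERK, JUND and KLF10 rose by 0.60 to 0.93. With all arrays 8 of these genes were higher and 3 lower, and NR4A2 differed by 0.28 (limma adjusted p = 0.70).

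The 3 genes that fell in this list were CCN1, CCN2 and ZFP36L1. CCN1, a secreted matricellular protein that YAP and serum response factor induce, had control values of 16.45, 16.28 and 16.32 and OS values of 14.01 and 13.49, with 13.65 on OS replicate 3. Its difference of -2.60 (SE 0.23, limma adjusted p = 6.79e-07) left no overlap of the groups. CCN2, the related connective tissue growth factor, fell by 0.90 and ZFP36L1, a protein that promotes decay of AU-rich mRNAs, by 0.63. JUNB (0.51), ZFP36 (0.27), EGR1 (0.25) and IER2 (0.19) were not called.

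Genes of the integrated stress response, which ATF4 drives, were higher as a group. Of 13 tested members 11 were higher and none lower, with a median difference of 0.65, where 6.19% of 9477 genes tested were higher and 4.86% lower with a median of -0.02. ATF4 itself had control values of 16.75, 16.47 and 16.69 and OS values of 17.54 and 17.45, with 17.44 on OS replicate 3. It rose by 0.86 (SE 0.12, limma adjusted p = 0.000168) with no overlap. Asparagine synthetase (ASNS), an ATF4 target, was at 13.38, 13.31 and 13.06 in control and at 14.58 and 14.24 upon OS, and rose by 1.16 (SE 0.19, limma adjusted p = 0.000414). SESN2, an inhibitor of mTORC1 signalling, rose by 1.12 and SLC3A2, the heavy chain of amino acid transporters, by 1.00. VEGFA, NUPR1, SLC7A11, TRIB3, SLC7A5, SHMT2 and HERPUD1 rose by 0.48 to 0.67, while STC2 (0.45) and CHAC1 (-0.30) were not called. The count depended on the settings, with 7 called higher with all arrays, 3 under 75th percentile scaling and 6 to 9 when an array was left out, fewest without OS replicate 1.

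Extracellular matrix genes gave the highest median of the lists. Of 24 tested genes for collagens, laminins, other matrix proteins and collagen-modifying enzymes 14 were higher (58.3%) and none lower, and the median difference was 1.15. COL12A1, a fibril-associated collagen, had control values of 12.58, 12.44 and 12.17 and OS values of 14.39 and 14.25, with 14.48 on OS replicate 3. The groups were separated, and the difference was 1.93 (SE 0.26, limma adjusted p = 6.87e-05). Tenascin C (TNC), a matrix glycoprotein, also rose by 1.93, from 7.64 to 8.06 on the control arrays to 9.73 and 9.81 upon OS.

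The fibrillar collagen COL5A1 was at 12.0, 12.17 and 11.94 in control and at 14.01 and 13.83 upon OS, a rise of 1.89. COL1A1, a main fibrillar collagen of fibroblasts, was at 15.20, 15.27 and 15.08 in control and at 16.71 and 16.21 upon OS, with 16.77 on OS replicate 3, a rise of 1.28 (SE 0.15, limma adjusted p = 2.34e-05). In each of them every OS array lay above every control array. Fibrillin 2 (FBN2), a microfibril protein, was at 7.39 to 7.51 in control and 9.44 and 9.52 upon OS, and rose by 2.03, but OS replicate 3 was at 7.68. COL6A3 (1.76), COL6A1 (1.70), COL4A2 (1.66), COL3A1 (1.29), LAMB2 (1.25), BGN (1.05), P4HA1 (0.93) and FBLN1 (0.84) rose too.

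LAMA2, a laminin chain, differed most within the list, by 2.65 (limma adjusted p = 0.0281), but was well above background on 1 of 3 control arrays and lost its call whichever array was left out. POSTN (0.86), LUM (0.37), ELN (0.31) and THBS1 (0.23) were not called. With all arrays 13 of the 24 matrix genes were higher, under 75th percentile scaling 12, and with an array left out 10 to 13, and in each of these settings none was lower. COL3A1 was not called with all arrays, at 0.89 (limma adjusted p = 0.0558).

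**Figure D3:**
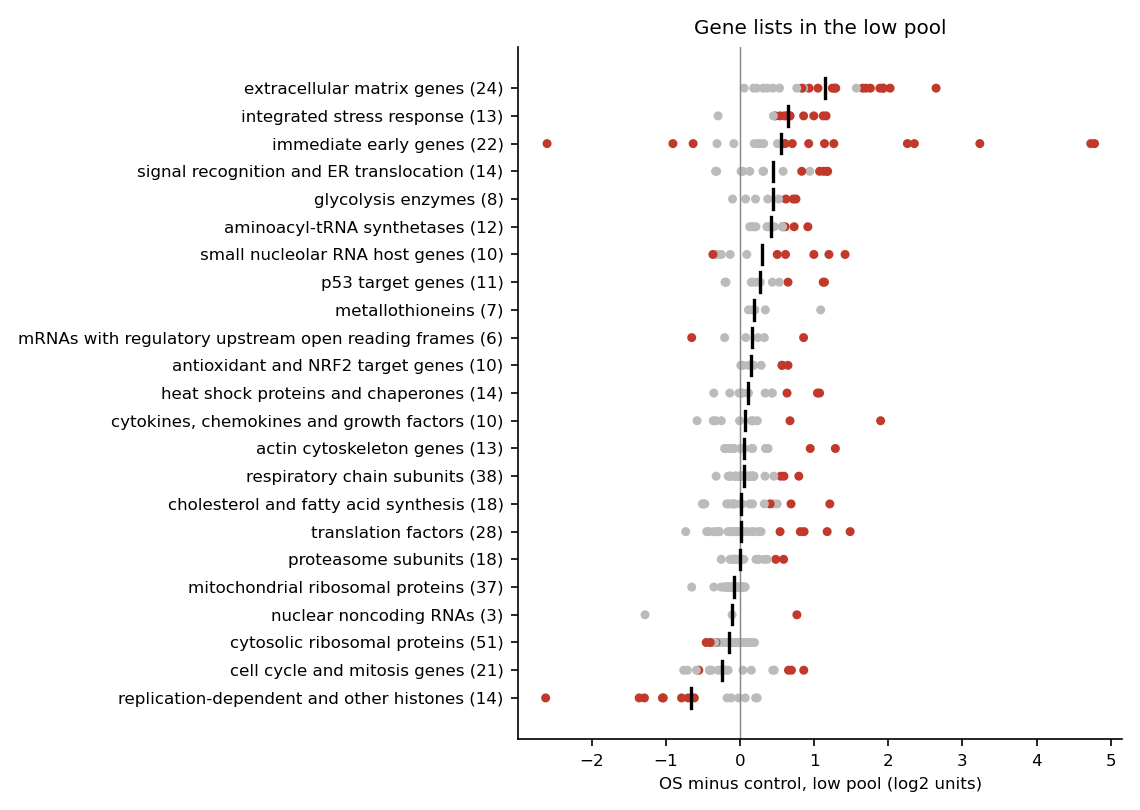
OS-minus-control difference in the low pool (log2, horizontal axis) for each tested member of the gene lists, in red where the adjusted p was under 0.05, with a black tick at each median and the number tested in brackets. The medians ran from 1.15 for matrix genes to -0.66 for histones.

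The machinery that folds and translocates secreted proteins was measured beside them. Of 14 tested genes 5 were higher (35.7%, against 6.19% of all genes) and none lower, with a median of 0.45. P4HB, PDIA4, CANX and CALR, which fold proteins in the endoplasmic reticulum, rose by 1.07 to 1.18, and RPN2, a subunit of the oligosaccharyltransferase, by 0.83. With all arrays 7 were higher and under 75th percentile scaling 2.

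Very long coding sequences were also among the higher transcripts. In a list of genes for very large proteins, put together after values had been seen, 21 of 60 tested were higher (35%) and 2 lower (3.33%). The median was 0.46, and the count is a description alone. Reelin (RELN) rose by 2.09, plectin (PLEC), which links cytoskeletal filaments, by 1.74, the dynein heavy chain DYNC1H1 by 1.65, and the DNA repair kinase PRKDC by 1.47. For RELN OS replicate 3 was at 6.90, within the control range of 6.83 to 7.12, and with all arrays its difference was 1.33 (limma adjusted p = 0.0496). CHD9, a chromatin remodeller, and WDFY3, an autophagy adaptor, fell by 0.87 and 0.64. With all arrays 16 were higher and 2 lower, and DST, a cytoskeletal linker that rose by 1.25, was not called at 0.71 (limma adjusted p = 0.11).

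Signals of replication-dependent histones fell. These mRNAs have no poly(A) tail, end in a stem loop and are made in S phase. RNA was labelled here from an oligo-dT primer, which pairs with poly(A). Which form of histone RNA gave the signals was not tested. Of 14 tested histone genes 8 were lower (57.1%) and none higher, with a median of -0.66, where 4.86% of all genes were lower. These counts were the same with all arrays and under each scaling, while leaving out an array gave 5 to 8, fewest without control replicate 1. The linker histone H1-3 had control values of 14.15, 13.93 and 13.67 and OS values of 11.46 and 11.13, with 11.14 on OS replicate 3. Its OS arrays all lay below its control arrays, and it fell by 2.62 (SE 0.29, limma adjusted p = 9.77e-06), the largest fall among probes well above background on all arrays used that met the naming rule. The core histones H3C10, H3C4 and H2AC20 fell by 1.36, 1.29 and 1.04, the linker histone H1-4 by 1.03, and H2AC17, H2BC11 and H4C4 by 0.62 to 0.79. H3C15 and H2AC16, which are not in the list, fell by 1.79 and 1.78. The replacement histones H3-3B (0.23) and H3-3A (0.07), which are made outside S phase, were not called. Of 21 tested cell cycle genes 3 were higher (14.3%, against 6.19% of all genes), the subunits MCM5 (0.86), MCM2 (0.69) and MCM4 (0.65) of the replicative helicase. CDC25A, a phosphatase that activates cyclin-dependent kinases, fell by 0.55 (4.76% lower, against 4.86% of all genes), while the median of the list was -0.24.

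Genes for zinc finger proteins named ZNF and a number, most of which bind DNA as repressors, made up another group that fell. The list was put together after values had been seen, so its count is a description alone. Of 259 tested 87 were lower (33.6%) and 2 higher (0.772%), with a median of -0.54. Over all 9477 genes tested 4.86% were lower and 6.19% higher. With all arrays 90 of the list were lower and none higher, and over all genes 533 were lower and 441 higher, with a median of -0.17. ZNF93 had control values of 8.30, 8.31 and 8.56 and OS values of 6.26 and 6.62, with 3.12 on OS replicate 3, and fell by 1.95 (limma adjusted p = 1.05e-06). ZNF792 was at 7.96, 7.88 and 7.85 in control and at 5.47 and 5.90 upon OS, and fell by 2.21, with no overlap of the groups for either gene. One ZNF658 probe fell by 2.06 but lost its call whichever array was left out, and the brighter probe of this gene fell by 1.96 (limma adjusted p = 0.000388), also with all arrays. ZNF107 and ZNF91 were not well above background upon OS, and were at least 3.86-fold and 3.45-fold lower than in control (limma adjusted p = 0.000132 and 0.0051). With all arrays ZNF107 was not called, at -1.91 (limma adjusted p = 0.128). Leaving out an array gave 49 to 75 lower genes, fewest without OS replicate 1.

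Other named falls were those of signalling genes. Endothelin 1 (EDN1), a vasoconstrictor peptide, was at 10.94, 10.76 and 10.60 in control and at 8.75 and 8.33 upon OS, with 7.6 on OS replicate 3, and fell by 2.23 (SE 0.19, limma adjusted p = 4.02e-07). MAP3K14, the kinase NIK of the noncanonical NF-κB pathway, was at 10.50 to 10.73 in control and 8.73 to 8.90 upon OS, and fell by 1.76. FUT4, a fucosyltransferase, fell by 2.03. All OS arrays lay below all control arrays for these genes.

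Ribosomal protein genes had few calls. Of 51 tested cytosolic ribosomal protein genes none was higher and 3 were lower (5.88%), among them RPSA (-0.45) and RPLP0 (-0.40), with a median of -0.15. That share lay near the 4.86% of all genes called lower. Transcripts of near-identical copies may add to the signal of their probes. RPSA was at 17.10, 16.91 and 16.85 in control and at 16.49 and 16.50 upon OS. Under 75th percentile scaling 1 of these genes was lower, under quantile normalization of all probes together 5, and with no normalization 16. None of 37 mitochondrial ribosomal protein genes was called by limma, and 2 were lower at an unadjusted p under 0.05.

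Of 28 translation factors 5 were higher (17.9%), EEF2, EIF3C, EIF3B, EIF4G1 and EIF4G3, with a median over the list of 0.01. With no normalization the list had 1 higher and 5 lower, and under 75th percentile scaling 1 higher. EEF2, which moves the ribosome along the mRNA, differed by 1.49 (limma adjusted p = 0.0389) and lost its call in 4 of 5 fits that left out an array. Of 12 aminoacyl-tRNA synthetases TARS1 (0.92), GARS1 (0.73), CARS1 (0.61) and RARS1 (0.58) were higher (33.3%), but none of them under 75th percentile scaling or with no normalization.

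Counts in the other stress and metabolic lists are to be read against the 6.19% of all genes called higher. Of 14 heat shock proteins and chaperones 3 were higher (21.4%) and none lower. HSP90AB1 was at 12.03, 11.82 and 11.79 in control and at 12.99 and 12.91 upon OS, with 13.45 on OS replicate 3, and rose by 1.07 with no overlap, and HSP90AA1 rose by 0.63. The mitochondrial chaperone HSPA9 was at 9.27 to 9.35 in control and at 10.42 and 10.28 upon OS, and rose by 1.05. Of 10 antioxidant and NRF2 target genes 3 were higher (30%) and none lower, which were the cystine transporter SLC7A11 (0.65), malic enzyme ME1 (0.57) and OSGIN1 (0.57). OSGIN1 was at 8.58 on OS replicate 3, below its control values, and was not called with all arrays. Of 11 p53 targets BTG2, SESN2 and the phosphatase PPM1D (0.65) were higher (27.3%). SLC7A11 and SESN2 are also members of the integrated stress response list, and BTG2 of the immediate early list. None of 7 metallothioneins, which bind metals, was called by limma, and 1 was higher at an unadjusted p under 0.05.

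Fatty acid synthase (FASN) was at 9.83, 9.72 and 9.73 in control and at 11.13 and 10.81 upon OS, with 10.92 on OS replicate 3. All its OS arrays lay above its control arrays, and it rose by 1.21 (SE 0.15, limma adjusted p = 2.99e-05). ACLY, which makes cytosolic acetyl-CoA, rose by 0.69 and LSS, which closes the sterol rings, by 0.41, and the other 15 of 18 genes of cholesterol and fatty acid synthesis were not called. The glycolytic enzymes HK1 (0.76), ENO1 (0.72) and ENO2 (0.62) were 3 of 8 called (37.5%). Of 38 respiratory chain subunits UQCRC1 of complex III (0.79) and the ATP synthase subunits ATP5F1B (0.59) and ATP5F1A (0.55) rose, a share of 7.90% that lay near that of all genes. Of 18 proteasome subunits PSMD2 (0.59) and PSMC2 (0.48) rose (11.1%), and none was lower in either list. Filamin A (FLNA), which crosslinks actin, rose by 1.29 and was 1 of 2 called among 13 actin cytoskeleton genes.

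Of 10 cytokines and growth factors CXCL2 and VEGFA were higher. The chemokine CXCL2, well above background on 2 of 3 control arrays, was at 5.63, 5.04 and 5.27 in control and at 7.55 and 6.86 upon OS, and rose by 1.90. VEGFA, an angiogenic factor, was at 8.54, 8.45 and 8.26 in control and at 9.15 and 9.03 upon OS, but at 5.32 on OS replicate 3, and with all arrays its direction turned, to -0.57 (limma adjusted p = 0.497). Among 6 mRNAs with regulatory upstream open reading frames ATF4 rose and AMD1, an enzyme of polyamine synthesis, fell. AMD1 was at 13.82, 13.92 and 14.13 in control and at 13.15 and 13.46 upon OS, a change of -0.65 (limma adjusted p = 0.0027) with no overlap.

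Noncoding host genes of small nucleolar RNAs, whose spliced RNAs are known to load ribosomes and then decay by nonsense-mediated decay, moved in both directions. Of 10 tested SNHG3 (1.42), SNHG10 (1.20), SNHG1 (1.00), SNHG9 (0.61) and SNHG7 (0.50) rose and SNHG15 fell by 0.36, while GAS5 (-0.31) was not called. The shares were 50% higher and 10% lower, against 6.19% and 4.86% of all genes. The directions depended on the scaling, with 2 higher and none lower under 75th percentile scaling and 2 higher and 3 lower with no normalization. MEG3, an imprinted lncRNA, rose by 0.77, and MALAT1, a nuclear lncRNA, was not called at -1.28 (limma adjusted p = 0.431). ZNF143-AS1, an antisense transcript measured on a catalog probe, was at 4.4, 4.04 and 5.25 in control, not well above background there, and at 8.31 and 8.51 upon OS, with 7.83 on OS replicate 3. Its rise was at least 11.9-fold (limma adjusted p = 3.29e-07).

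The custom lncRNA probes give a transcript identifier without a position, so neither neighbours nor sequences are given for them. ENST00000564152.1 had control values of 8.76, 8.79 and 8.98 and OS values of 12.65 and 12.38, with 12.70 on OS replicate 3. It rose by 3.67 (SE 0.18, limma adjusted p = 5.85e-10) without overlap. ENST00000577848.1 followed at 3.26, ENST00000429167.1 at 2.97, ENST00000429681.1 at 2.90 and ENST00000430078.1 at 2.83. OS replicate 3 did not share the rise of 3 of these. It was at 4.42 for ENST00000577848.1, whose difference with all arrays was 1.67 (limma adjusted p = 0.150). It was at 5.35 for ENST00000429167.1 and 5.43 for ENST00000429681.1, within their control ranges, and their differences with all arrays were 1.94 and 1.82 (limma adjusted p = 0.0351 and 0.0418). The lncRNA that fell most among those named, ENST00000587332.1, was at 11.82, 11.94 and 11.65 in control and at 9.88 and 9.93 upon OS, and fell by 1.90 (limma adjusted p = 8.03e-07). ENST00000344686.2, ENST00000592267.1, ENST00000562082.1 and ENST00000575471.1 fell by 1.66 to 1.87. ENST00000587332.1, ENST00000344686.2 and ENST00000592267.1 had near-equal differences, in total RNA -1.19, -1.22 and -1.22. Whether they come from 1 gene was not tested, and 1 probe is given for each transcript.

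As a class, lncRNAs were compared with mRNAs by 1 value per array, the median log2 signal of tested lncRNA probes minus that of tested mRNA probes after joint normalization. It was -2.26, -2.33 and -2.24 in control and -2.18 and -2.08 upon OS, so that both OS values lay above all control values. The difference of 0.14 gave an exact two-sided permutation p of 0.1, which is the smallest that 2 against 3 arrays allow. The medians were taken over tested probes, which could enter through the group in which they were high. Among the dimmest of 5 equal bins of lncRNA probes 9.36% were called higher and 0.317% lower. This test therefore cannot separate a shift of the class from the entry of such probes. With all 6 arrays the difference was 0.02 (exact permutation p = 0.9), since OS replicate 3 was at -2.41. The share of probes well above background differed by 2.39 percentage points for lncRNA (exact permutation p = 0.5) and 1.10 for mRNA (exact permutation p = 0.8) without OS replicate 3.

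To ask which transcripts changed in the low pool beyond their change in the cell, the OS effect in the low pool was compared with that in total RNA, which shares no arrays with it. Of 11324 mRNA probes 304 moved up relative to total RNA (2.68%) and 57 moved down (0.503%), and of 14050 lncRNA probes 268 moved up (1.91%) and 219 down (1.56%). For lncRNA probes the up count was 139 with all 24 arrays, and for mRNA probes the counts were 182 and 33. Matrix genes moved up here too, 10 of 24 with none down and a median of 0.94, where 2.62% of 9866 genes moved up and 0.527% down with a median of -0.04. Of 62 genes for very large proteins 21 moved up and none down, with a median of 1.04. This list was put together after values had been seen, so its count is a description alone. It also overlaps with the matrix list, and FBN2 (2.76) was the highest member of both. Of the zinc finger genes 1 moved down and none up, and no histone was called by limma in this comparison, with 1 of 14 down at an unadjusted p under 0.05. Of 22 immediate early genes none moved up and 1 moved down, with a median of -0.31.

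COL12A1 rose by 1.93 in the low pool and differed by -0.67 in total RNA, a difference between pools of 2.60 (SE 0.34, limma adjusted p = 0.00014). FBN2 gave 2.76 (SE 0.47, limma adjusted p = 0.00187), from 2.03 in the low pool and -0.74 in total RNA, and RELN 2.50, from 2.09 and -0.41. With all 24 arrays COL12A1 stayed at 2.64 (limma adjusted p = 8.03e-05), while FBN2 and RELN were not called (limma adjusted p = 0.0731 and 0.164). COL12A1 also differed by 2.17 in the untranslated and 1.62 in the high pool, and FBN2 by 3.38 and 1.24. In the untranslated, low and high pools COL6A3 differed by 2.32, 1.76 and 1.61, PLEC by 2.75, 1.74 and 1.20, and DYNC1H1 by 2.23, 1.65 and 1.21. For these genes the difference from total RNA was thus shared by the gradient pools and not particular to the low pool. In control COL12A1 was at 16.26 in total RNA and at 12.15, 12.40 and 12.97 in these pools. The labels give control untranslated replicates 1 and 2 the same sample number, and they were counted as separate arrays. DYNC1H1 also moved up, by 2.39. ENST00000445310 (2.42) and LINC01004 (2.40) were not called with all arrays.

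In the other direction, FAM58BP rose by 2.36 in total RNA and by 0.89 in the low pool, a difference of -1.48 (limma adjusted p = 4.82e-05). RAB42, a small GTPase, gave -1.52, from -0.34 in the low pool and 1.18 in total RNA. TRIM69, a ubiquitin ligase, gave -1.36, from 0.86 and 2.22, and FHL2, a LIM domain cofactor, -1.34, from -0.30 and 1.04. RAB42 and FHL2 were not called in the low pool (limma adjusted p = 0.451 and 0.578). In the untranslated and high pools RAB42 differed by 0.13 and -0.008, TRIM69 by 0.91 and 0.40, and FHL2 by 0.42 and -0.35. For these genes the difference from total RNA was thus not particular to the low pool. CCN1 fell by more in the low pool, -2.60, than in total RNA, -1.29, with a difference of -1.31 (limma adjusted p = 0.02). With all arrays FAM58BP, RAB42 and CCN1 remained called, and TRIM69 and FHL2 were not. H1-3 fell by 2.62 in the low pool and differed by -2.73 in total RNA. ASNS, which moved up by 1.02 (limma adjusted p = 0.0294), was the 1 integrated stress response gene called between total RNA and the low pool.

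**Figure D4:**
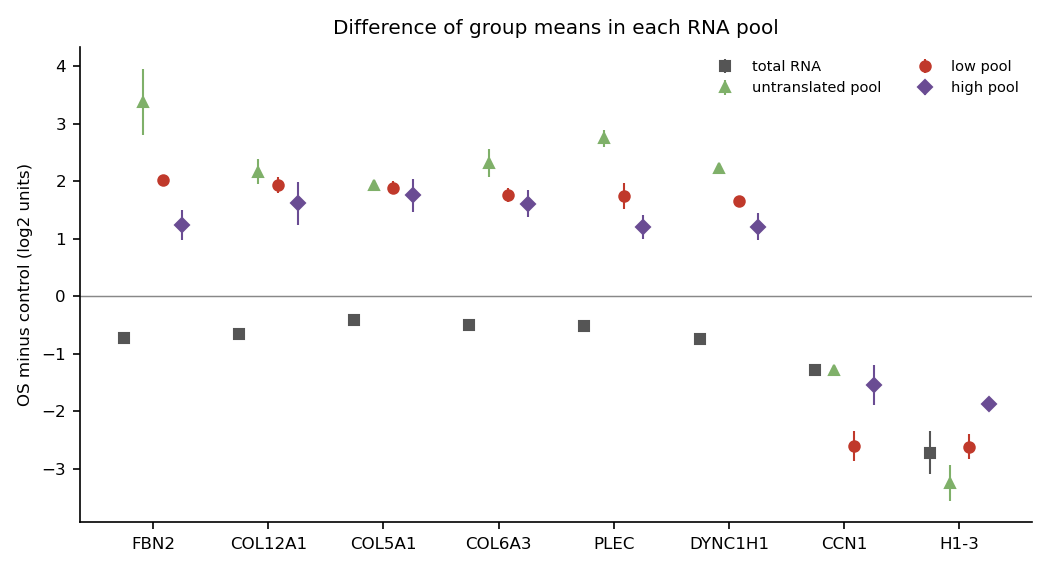
Difference of group means, OS minus control (log2, vertical axis), for 8 genes in total RNA and each of the pools (untranslated, low, high), with error bars of 1 SE from the group SDs (3 control and 3 OS arrays, with 2 OS arrays in the low pool). COL12A1 differed by -0.67 in total RNA and 1.93 in the low pool, and CCN1 by -1.29 and -2.60.

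The low pool was then set against the high pool, which asks whether a transcript changed differently on 2 to 4 ribosomes than on 5 or more. Fewer probes differed here, 103 of 11057 mRNA probes up in the low relative to the high pool (0.932%) and 29 down (0.262%), and 19 (0.147%) and 29 (0.225%) of 12901 lncRNA probes. These counts rested on the scaling and on the spread taken from the other groups. Under 75th percentile scaling 9 mRNA probes moved up and 6 down, and with the arrays of these groups alone 10 and 5.

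Genes of the translation machinery lay among those that moved up. Elongation factor EEF1A1, which delivers aminoacyl-tRNA, was at 15.85, 15.37 and 15.57 in control and at 15.89 and 15.84 upon OS in the low pool. Its low pool levels overlapped, with a difference of 0.27, while in the high pool it fell by 1.32, and the difference between pools was 1.59 (SE 0.25, limma adjusted p = 0.00391). A second EEF1A1 probe gave 0.58 (limma adjusted p = 0.089), and the gene has many near-identical copies, so this value is uncertain. RPL13A, a protein of the large ribosomal subunit, differed by -0.23 in the low and -1.08 in the high pool, with 0.85 between them (limma adjusted p = 0.00903), and RPL3 gave 0.66 (limma adjusted p = 0.0352, and 0.0562 with the replicate number as a block). EIF3C (1.37) and EEF1D (0.79) moved up as well, and 2 of the ribosomal protein genes and 2 of the translation factors in all were called.

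mRNAs of ribosomal proteins and elongation factors are known for a run of pyrimidines at their very start, the terminal oligopyrimidine (TOP) motif, through which mTORC1 controls their translation. A run of at least 7 letters of C or T that begins with C was searched on the coding strand where it began at most 5 bases before or after the annotated start in RefSeq for GRCh38.p14. It was found at 7.58% of 27305 starts and at 34 of 45 ribosomal protein genes on the array (75.6%). Of 6570 genes tested between low and high pool 8.42% held it, of 75 called up 13 (17.3%) and of 21 called down 1 (4.76%). Of genes called higher in the low pool 7.56% held it, and of those called lower 9.95%. The 30 bases from 5 before the start are shown for 4 genes that moved up relative to the high pool, with the run in capitals, at chr6:73521008-73521037 on the minus strand for EEF1A1, chr12:76084661-76084690 on the minus strand for NAP1L1, a histone chaperone that differed by 0.72, chr19:47745541-47745570 on the plus strand for NOP53, a ribosome assembly factor, and chr19:49487603-49487632 on the plus strand for RPL13A.
EEF1A1: acgttCTTTTTCgcaacgggtttgccgcca
NAP1L1: tgggtCTTTTTTagcgccatctgctcgcgg
NOP53: gagttCTTCCTTTgacaagatggcggcagg
RPL13A: tCCTCCTTTTCCaagcggctgccgaagatg

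Among the larger named differences, LINC01963 (1.91), LOC338620 (1.82), LOC285178 (1.66) and FYCO1 (1.45), an adaptor of vesicle transport, moved up relative to the high pool. These probes differed by 3.11, 3.096, 2.27 and 2.19 in the untranslated pool, against 1.42, 1.74, 1.14 and 1.06 in the low pool. For these genes the difference from the high pool was thus not particular to the low pool. The probes of LINC01963 and LOC285178 lie on the plus strand at chr2:217084790-217084849 and chr2:217081345-217081404. Whether they come from the same gene was not tested. FAM58BP was raised by 3.36 in the high pool and 0.89 in the low pool, and its difference of -2.48 (limma adjusted p = 1.75e-06) was the largest of those down. ZFP36, which promotes decay of AU-rich mRNAs, differed by 2.09 in the high and 0.27 in the low pool, with -1.82 between them (limma adjusted p = 0.00303). VAMP8, a vesicle fusion protein, gave -1.59, SDHA, a subunit of succinate dehydrogenase, -1.20, and CLK1, a kinase of splicing factors, -1.17. ATF4, which rose in both pools, rose by 0.86 in the low and 1.70 in the high pool, a difference of -0.84 (limma adjusted p = 0.0223). No matrix gene was called by limma between these pools, where 5 of 24 were up at an unadjusted p under 0.05 and their median difference was 0.43. With all 24 arrays LINC01963 was not called (limma adjusted p = 0.233), while FAM58BP, ZFP36, VAMP8, SDHA and CLK1 remained called.

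**Figure D5:**
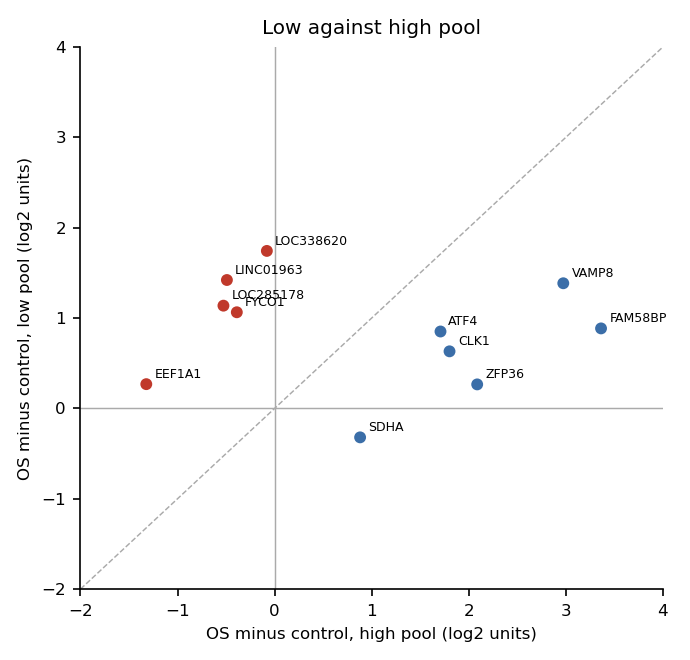
OS-minus-control difference in the high pool (horizontal axis) against that in the low pool (vertical axis), both log2, for the 10 genes named by this comparison and ATF4, with red for genes up and blue for genes down in the low relative to the high pool and a dashed line of equal change. FAM58BP lay at 3.36 and 0.89, and EEF1A1 at -1.32 and 0.27.

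Differences varied with the base composition of the probes. With the mRNA probes in 5 equal bins of GC content the median low pool difference ran from -0.10 in the lowest bin to 0.02 in the highest, and the share called lower from 6.18% to 1.62%. For lncRNA probes the median ran the other way, from -0.01 to -0.09, and the share called higher from 9.72% to 3.13%.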

How the data were processed

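RNA of the low pool was compared on single-color (Cy3) Agilent arrays. The authors deposited scanner files of Feature Extraction 10.7.3.1, whose processed signal is an intensity with the background already subtracted, on an array design for GRCh37. A second file deposited by the authors holds normalized log2 values, which joint quantile normalization of the processed signals over mRNA and lncRNA probes matched to within 0.00145, and was used as an alternative. No column belonged to another series (0).

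Following the methods, the log2 processed signal was quantile-normalized separately for mRNA and lncRNA probes and fitted over 8 groups in a linear model with contrasts, here limma 3.58.1 in R 4.3.3 with Benjamini-Hochberg adjustment over both categories. The methods removed anomalous replicates without naming them. OS replicate 3 of the low pool was left out here and the other 23 arrays normalized again. Control spots and 178 probes with an outlier mark were left out. Tests were limited to probes that the scanner software marked as well above background on all arrays of 1 or more of the groups compared. A level below background on every array of a group is given as a bound from the lowest signal well above background on each of its arrays. Gene symbols were matched by accession to RefSeq for 12920 of 17535 mRNA probes, and other probes keep the name of the array. For arrays, their number limits the precision.

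Genes were named where they had the 10 highest and 10 lowest estimates of the mRNA category (5 and 5 for lncRNAs and for each difference between pools) among called probes above background on all arrays used, with OS and control values (between pools, differences of samples with the same replicate number) that did not overlap, a name, an unshared sequence and the same sign with all arrays. Up to 3 called members per list with the largest change and transcripts named in the study were added. Other list members were named after their values were seen. The members and lists were chosen with earlier results of these data known. Of the transcripts named in the study, FOS, GAPDH, ACTB, NEAT1 and FOSL2 were not found under these names on the probes used, and BNIP3 was not called at 0.37 (limma adjusted p = 0.291). A list holds 1 probe per gene, the brightest.

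Replicate numbers recur across groups. Samples with the same number in control and OS low pool deviated from their group means with correlations of 0.135, -0.05 and 0.024. OS replicate 3, placed by rank, entered the OS mean here. Without it, the difference between replicates 1 and 2 correlated at 0.154 between control and OS. Between the low and high pools of control cells these were 0.295, 0.106 and 0.28 (OS replicates 1 and 2 gave 0.135), and between the low pool and total RNA of control cells 0.112, 0.028 and 0.155. The number was used as a block only in an alternative. In simulated low pool data on 23435 probes 84.0% of changes of 1 log2 unit and 96.0% of changes of 2 were recovered, with 20 unchanged probes called. Every group was drawn with independent normal noise of the spread of the control low pool arrays, and changes were added after normalization. The simulation thus leaves out scaling and a spread that differs between groups, and the real calls may be less reliable. Alternatives were other normalizations, filters, array weights, blocks for replicate number and slide, the groups compared alone, the deposited table and leaving out each array in turn. A split by protein length was planned and not run, since the table it needs was not used here. Some genes are not reported here.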

Additional observations from a re-analysis of the deposited data

Results flagged for a closer look

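The results here were singled out because the effect of OS differed between the low pool and another set of arrays by a limma test of that difference. Against total RNA the counts were 304 mRNA probes up and 57 down, and 268 lncRNA probes up and 219 down. The named genes up were FBN2 (2.76), COL12A1 (2.60), RELN (2.50), ENST00000445310 (2.42) and LINC01004 (2.40), and those down were RAB42 (-1.52), FAM58BP (-1.48), TRIM69 (-1.36), FHL2 (-1.34) and CCN1 (-1.31), all on the log2 scale. Against the high pool the counts were 103 mRNA probes up and 29 down, and 19 lncRNA probes up and 29 down. The named genes up were LINC01963 (1.91), LOC338620 (1.82), LOC285178 (1.66), EEF1A1 (1.59) and FYCO1 (1.45), and those down were FAM58BP (-2.48), ZFP36 (-1.82), VAMP8 (-1.59), SDHA (-1.20) and CLK1 (-1.17). The named genes were chosen for the size of these differences.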

How the results depend on the processing

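Counts are given as higher and lower, or up and down, and the cause of a change was not tested. In the low pool all 24 arrays gave 353 lncRNA probes higher, and array weights on all 24 arrays 1477 and 1657 mRNA and 1374 and 1397 lncRNA probes. Quantile normalization of all probes together gave 213 lncRNA probes lower, 75th percentile scaling 303 mRNA probes higher, no normalization 265 and 1602 mRNA probes, normexp 797 mRNA and 219 lncRNA probes lower, and a strict filter 436 lncRNA probes higher. The deposited table without OS replicate 3, an alternative chosen after seeing the data, gave 215 lncRNA probes lower.

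Between low pool and total RNA all 24 arrays gave 182 and 33 mRNA probes and 139 lncRNA probes up, array weights 1067 and 708 mRNA and 899 and 866 lncRNA probes, 75th percentile scaling 165 and no normalization 134 mRNA probes up, and normexp 92 mRNA probes down. The strict filter gave 26 mRNA probes down and 102 and 40 lncRNA probes and the groups compared alone 669 and 189 mRNA and 594 and 523 lncRNA probes.

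Between low and high pool all 24 arrays gave 68 and 15 mRNA and 4 and 13 lncRNA probes, array weights 595 and 431 mRNA and 237 and 372 lncRNA probes, 75th percentile scaling 9 and 6 mRNA probes and 4 lncRNA probes down, and no normalization 5 and 6 mRNA probes and 6 lncRNA probes down. Normexp gave 29 and 14 lncRNA probes, the strict filter 47 mRNA probes down and 8 lncRNA probes up, no filter 66 and 17 mRNA probes and the groups compared alone 10 and 5 mRNA probes and 6 lncRNA probes down.

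With 1 array left out in turn the low pool had 355 to 514 mRNA probes higher and 238 to 404 lower, and 578 to 633 lncRNA probes higher and 160 to 288 lower. Against total RNA the ranges were 159 to 249 and 27 to 51 mRNA and 181 to 265 and 126 to 196 lncRNA probes, and against the high pool 48 to 109 and 13 to 35 mRNA and 12 to 94 and 17 to 34 lncRNA probes, with 94 without OS low pool replicate 2. The lncRNA against mRNA difference ran from 0.115 to 0.212 with an array left out, was 0.0238 with all arrays and 0.3035 under 75th percentile scaling or no normalization. The share of probes above background differed by 22.87 percentage points for lncRNA and 11.63 for mRNA with all 6 arrays.

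Replicate numbers were taken to pair samples where every pair correlated above 0.1. Between control and OS of the low pool, with OS replicate 3 included, this rule was not met. Replicates 1 and 2 alone gave 0.154 there, so that pairing was not settled. Between the low and high pools of control cells the rule was met. With the replicate number as a block the low pool had 624 and 508 mRNA and 759 and 349 lncRNA probes, total RNA gave 294 and 66, and 280 and 220, the high pool 92 and 29, and 19 and 25, and the lncRNA against mRNA difference was 0.1617. Between low and high pool the block ended the calls of RPL3 (0.66, limma adjusted p = 0.0562), ZFP36L1 (-0.88, 0.0538) and HTT (0.74, 0.0745) and of no other probe named there. A slide block gave 646 and 516 mRNA and 814 and 375 lncRNA probes in the low pool. Of the values of single named probes under an alternative 2294 kept direction and call, 500 lost the call, 2 gained it and 1 changed direction, VEGFA in the low pool at -0.57 with all 24 arrays. Signal over background limits the lncRNA probes, of which at most 33.5% were above background on the arrays used in the low pool.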

Other observations

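On control total RNA replicate 1, 298 probes lay more than 4 log2 units below both other arrays of its group, against 51 on replicate 3, and COL6A2 among them had a low pool difference of 1.57 with an SE of 1.93.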
